A study of Mus musculus with 18 samples.

Results

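Primitive endoderm genes were examined in mouse embryonic stem cells: Gata6, Gata4, Sox17 and Sox7, which encode transcription factors; Lama1, Lamb1 and Sparc, which encode basement membrane proteins; and Dab2, Fst and Apoe. These 10 genes were chosen by name, out of 21887 genes with a position, and the peaks assigned to a gene were those overlapping its RefSeq gene body (mm10) or the 20 kb on each side. The study mapped H3K27ac and H3K4me3 by chromatin immunoprecipitation in 3 genotypes, labelled Mettl3_Control, Mettl3_KO1 and Mettl3_KO2 and called Control, KO1 and KO2 here. Mettl3 encodes the catalytic subunit of the methyltransferase that writes N6-methyladenosine on RNA. All cells were C57BL/6 embryonic stem cells grown with serum, LIF, the GSK3 inhibitor CHIR99021 and the MEK inhibitor PD0325901 and fixed with formaldehyde. Chromatin was precipitated with an antibody to either mark, with spike-in chromatin and its antibody (Active Motif) added. Each genotype and mark had 2 libraries with a peak list each, 12 lists in all, and the 6 input samples were not analysed here. Each knockout is 1 named line, and whether KO1 and KO2 are single clones, which alleles they carry and what Control was treated with are not given in the sources used here. Nothing in the labels says that the 2 libraries came from separate cultures, so every p-value here rests on a library-to-library spread that may be only technical.

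Primitive endoderm is the extraembryonic layer that separates from the epiblast in the inner cell mass of the blastocyst, under the control of FGF and MEK signalling. Gata6 acts early in this choice, Gata4, Sox17 and Sox7 follow, and the descendants of the layer, parietal and visceral endoderm, secrete basement membrane and supply nutrients to the embryo. Embryonic stem cells correspond to the epiblast. H3K4me3 lies on promoters, many of them silent ones poised for later use, whereas H3K27ac lies on active promoters and enhancers.

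The lists were unequal in length: for H3K27ac, Control had 29973 and 32957 peaks, KO1 40210 and 39048, and KO2 65398 and 61383, while for H3K4me3 they ran from 66483 to 83644 peaks with the 2 Control lists the longest. All 10 embryonic stem cell markers examined, among them Pou5f1, Sox2 and Nanog, carried H3K27ac in its 6 libraries and H3K4me3 in its 6. These values are for 2 kb on each side of the point inside the gene with the most H3K4me3, which favours that mark. Of the promoter windows compared below, those of 9 of the 10 markers were tested for H3K27ac. For 10 fibroblast markers the summed H3K27ac length was 1620 and 2455 bp in Control. It was 3646 and 2686 bp in KO1 and 4378 and 5073 bp in KO2. Of these markers, 5 had no H3K27ac peak in any library. No H3K27ac lay in a window of most H3K4me3 at Col1a1, Col1a2 or Col3a1. Around Mettl3, the targeted gene, H3K4me3 coverage fell by 0.57 in KO1 (limma adjusted p = 0.0165) and by 0.55 in KO2 (adjusted p = 0.0123) on the log2 scale, but peaks at a gene do not check its deletion. Reads behind each list are unknown, so a missing peak means that none was called at a q-value of 1% and not that the mark was absent. In bulk chromatin, a mark in more cells and more of the mark per cell cannot be told apart.

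The set of RefSeq starts used here, on GRCm38.p6, the assembly of mm10, listed 4 of the 10 genes: Sparc, Apoe, Lamb1 and Dab2. That the other genes were not listed is a limit of this set and does not mean that RefSeq gives them no start. The 250 bases before 6 of their 7 listed starts are shown 5′ to 3′ on the gene's strand because the marks at these starts differed between genes and lines; the Apoe window left out overlaps the internal one shown. Capitals mark every match, on either strand, to the GC box GGGCGG, the CCAAT box CCAAT, the TATA box TATAAA and the GATA motif AGATAA or TGATAA; the only matches that overlap are the 2 TATA boxes before the internal Apoe start.
Sparc, chr11:55420081-55420330, minus strand: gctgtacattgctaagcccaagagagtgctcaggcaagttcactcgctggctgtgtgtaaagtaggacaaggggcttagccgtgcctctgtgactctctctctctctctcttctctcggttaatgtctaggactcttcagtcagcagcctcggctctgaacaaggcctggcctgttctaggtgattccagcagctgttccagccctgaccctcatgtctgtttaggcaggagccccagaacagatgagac
Apoe, chr7:19699189-19699438, minus strand, the most upstream of its listed starts: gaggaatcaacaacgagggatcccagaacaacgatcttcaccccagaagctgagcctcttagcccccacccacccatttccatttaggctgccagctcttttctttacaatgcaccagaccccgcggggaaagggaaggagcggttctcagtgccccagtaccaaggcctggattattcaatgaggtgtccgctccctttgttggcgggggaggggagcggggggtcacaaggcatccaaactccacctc
Apoe, internal start, chr7:19698622-19698871, minus strand: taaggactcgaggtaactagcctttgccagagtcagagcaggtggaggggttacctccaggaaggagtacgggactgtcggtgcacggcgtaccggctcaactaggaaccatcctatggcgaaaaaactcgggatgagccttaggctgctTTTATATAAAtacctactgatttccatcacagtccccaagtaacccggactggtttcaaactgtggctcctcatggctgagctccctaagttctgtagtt
Lamb1, chr12:31265043-31265292, plus strand: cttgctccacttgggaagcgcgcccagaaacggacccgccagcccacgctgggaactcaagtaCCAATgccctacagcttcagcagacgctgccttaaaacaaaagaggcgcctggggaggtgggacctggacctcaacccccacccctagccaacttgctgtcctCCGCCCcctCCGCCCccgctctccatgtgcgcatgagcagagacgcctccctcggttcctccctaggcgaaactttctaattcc
Dab2, upstream start, chr15:6299539-6299788, plus strand: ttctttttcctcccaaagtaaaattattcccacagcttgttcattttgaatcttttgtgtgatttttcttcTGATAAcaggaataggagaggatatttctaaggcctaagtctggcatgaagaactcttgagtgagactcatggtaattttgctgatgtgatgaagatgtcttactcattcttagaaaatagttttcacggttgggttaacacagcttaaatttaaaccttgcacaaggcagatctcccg
Dab2, internal start, chr15:6386498-6386747, plus strand: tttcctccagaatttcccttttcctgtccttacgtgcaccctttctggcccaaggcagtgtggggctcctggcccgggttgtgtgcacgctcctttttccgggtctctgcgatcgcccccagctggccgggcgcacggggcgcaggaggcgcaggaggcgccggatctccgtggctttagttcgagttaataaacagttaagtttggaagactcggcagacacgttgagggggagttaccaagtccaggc
Lamb1 held 2 GC boxes and 1 CCAAT box, which 32.7% and 33.9% of the 32841 listed windows of this length held at least once, and the upstream Dab2 start held 1 GATA motif, found in 16.6%. The internal Apoe start held 2 TATA box matches, a motif present in 12.4% of windows. The Sparc, upstream Apoe and internal Dab2 windows held none of these motifs. CpG dinucleotides numbered 2 before the upstream Dab2 start, 4 at Sparc, 8 and 9 before the upstream and internal Apoe starts, 14 at Lamb1 and 17 before the internal Dab2 start, against a median of 6 over all windows.

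The marks on these bases followed no single pattern. H3K27ac peaks covered 38 and 202 of the 250 Sparc bases in Control, 250 and 4 of them in KO1, and all 250 in both KO2 libraries. Before the upstream Apoe start they covered 0 and 74 bases in Control, none in KO1 and 153 and 250 in KO2. Before the internal Apoe start they covered 226 and 250 bases in Control, 212 and 71 bases in KO1 and all 250 in KO2. At both of these starts the mean was highest in KO2 and lowest in KO1. Before the third Apoe start, not shown, they covered 3 and 76 bases in Control, 0 and 250 bases in KO1 and all 250 in KO2. The Lamb1 window carried no H3K27ac in any library, and its H3K4me3 covered all 250 bases in Control and KO2 but 0 and 57 bases in KO1. Dab2 had no peak of either mark before its upstream start in any library, whereas H3K4me3 covered 250 and 152 bases before its internal start in Control, 170 and 250 in KO1 and all 250 in KO2.

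**Figure D1:**
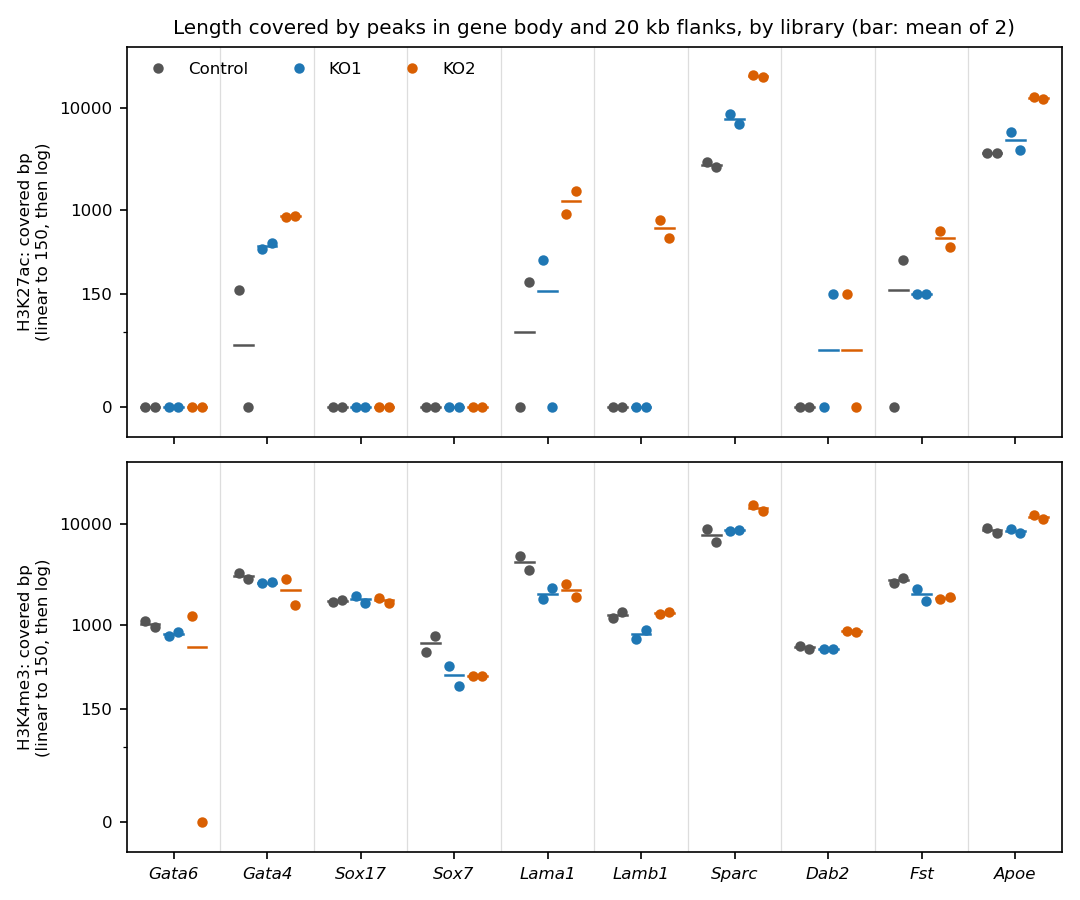
Length covered by H3K27ac peaks (top) and H3K4me3 peaks (bottom) in each gene body with 20 kb on each side; points are libraries, bars the mean of 2, and the vertical axis is linear up to 150 bp and logarithmic above. H3K27ac at Sparc and Apoe lies highest in KO2, Gata6, Sox17 and Sox7 have no H3K27ac in any library, and 1 KO2 library has no H3K4me3 at Gata6.

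H3K27ac was compared first, as the length covered by peaks in the gene body and flanks. Differences were fitted with limma on log2(bp + 500) over all genes averaging 500 bp or more, and called at a Benjamini-Hochberg adjusted p under 0.05 over all genes tested. Of the 10 genes, Sparc and Apoe passed this filter, on their Control libraries alone. Sparc rose in both knockout lines, by more in KO2, and Apoe rose in KO2. The other 8 genes had at most 1538 bp of H3K27ac in any library. Both contrasts use the same Control libraries. In KO1, 1 of the 2 tested genes was higher, against 20.1% of all 11687 tested genes, and in KO2 both were, against 92% of all tested genes. Both were also higher in KO2 than in KO1, against 82.7%. None was lower, against 0.813%, 0.257% and 0.368% in these contrasts. The count in KO2 is near the background. Leaving out either Control library brought genes other than Sparc and Apoe past the filter. They passed only through the knockout libraries, where they had to be higher, so their calls in KO2 carry no weight. The median of all tested genes moved by 0.26 in KO1 and 1.11 in KO2 on the log2 scale, and the genes below are read against those shifts.

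The 4 transcription factor genes carried almost no H3K27ac in any genotype. Gata6, a zinc finger factor at the head of the program, had no H3K27ac peak in any of the 6 libraries. Sox17 and Sox7, related HMG-box factors, had none either. Gata4, the zinc finger factor that acts after Gata6, had 164 and 0 bp in Control, 416 and 474 bp in KO1 and 849 and 881 bp in KO2 within its 20 kb window. The knockout libraries lay above both Control libraries, but nearly all of that length came from 1 region, chr14:63193027-63193838, which lies outside the gene body and overlaps the neighbouring gene Neil2. Within the Gata4 gene body, the only H3K27ac peak was one of 150 bp in KO2 replicate 2.

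Sparc, which encodes a secreted matrix glycoprotein made in quantity by parietal endoderm, showed the larger H3K27ac difference of the 2 tested genes. Its covered length was 2964 and 2622 bp in Control, 8878 and 6951 bp in KO1 and 21435 and 20359 bp in KO2. The 3 genotypes did not overlap, with KO1 between Control and KO2. The KO2 mean of 20897 ± 761 bp (SD, n = 2) was 7.48 times the Control mean of 2793 ± 242 bp (n = 2), and the KO1 mean was 2.83 times as long as in Control. In log2 units, Sparc rose by 1.35 ± 0.13 (SE) in KO1 (limma adjusted p = 0.000643) and 2.70 ± 0.13 in KO2 (adjusted p = 1.42e-06), larger than the differences of 98.2% and 98.8% of tested genes. KO2 also exceeded KO1 by 1.36 (adjusted p = 3.96e-05). After quantile normalization, which removes the shift of all genes, the rises were 1.05 (adjusted p = 0.000565) and 1.64 (adjusted p = 1.33e-05). Genes on chromosome 11 as a whole had median differences of 0.35 in KO1 and 1.24 in KO2, and Sparc exceeded 97.1% and 98.2% of them.

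The rise at Sparc was seen within the gene and upstream of it. The gene body alone held 1888 and 989 bp of H3K27ac in Control, 5362 and 4346 bp in KO1 and 9753 and 9876 bp in KO2. In the promoter window, 2 kb on each side of its start, H3K27ac covered 16.9% and 8.9% in Control, 38.5% and 25.3% in KO1, then 88.2% and 92.9% in KO2. KO2 lay far above both other genotypes and gained 77.6 ± 5.52 (SE) percentage points over Control (limma adjusted p = 9.64e-05), more than the median of 17.9 points over the 9329 tested promoters. The KO1 difference of 19.0 points did not pass (adjusted p = 0.168). Merging the peaks of the 6 libraries gave 24 H3K27ac regions at Sparc, of which 8 were met by both KO2 libraries and neither Control library. The same held for 24.2% of all 77150 merged regions. Of these 8, 5 lay upstream of the start, 2 in the gene and 1 beyond its 3′ end. A single one, chr11:55430761-55431404, was gained in KO1 as well, 10681 bp upstream, with 285 and 280 bp in KO1 and 644 and 330 bp in KO2. In each of the 6 libraries the strongest H3K27ac peak at Sparc lay over the same stretch of the gene, beginning 23132 to 23237 bp from its low-coordinate end.

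**Figure D2:**
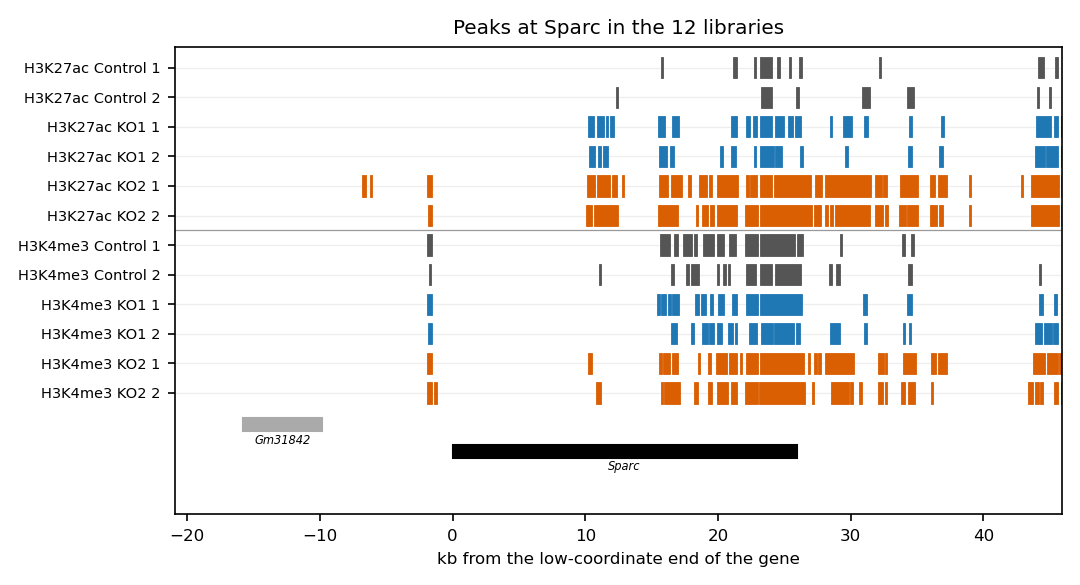
Peaks of the 12 libraries at Sparc, with 1 row per library and kilobases from the low-coordinate end of the gene on the horizontal axis; the gene (black) runs from right to left, so upstream is on the right, and other genes are grey. H3K27ac rows fill from Control through KO1 to KO2 within the gene and upstream of it, where 5 of the 8 regions gained in KO2 lie.

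The laminin genes had little H3K27ac, and what there was lay mostly in KO2. Lama1, which encodes the alpha chain of the main laminin of early basement membranes, had 0 and 198 bp in Control, 322 and 0 bp in KO1 and 912 and 1538 bp in KO2. Lamb1, which encodes the beta chain of the same laminin, had none in Control or KO1 and 799 and 530 bp in KO2. For both genes the KO2 libraries lay above all others, while KO1 overlapped or equalled Control. Neither passed the filter on mean length, and without the filter both differed in KO2 (Lama1 by 1.52, limma adjusted p = 0.00399, and Lamb1 by 1.21, adjusted p = 0.000677). Lamb1 had H3K27ac in KO2 alone, where it had to be higher, so its call carries no weight. Lama1 had little elsewhere, and the median over all genes that passed the filter was 1.11 in KO2. In KO2 the regions gained were 1 at Lama1, 156 bp into the gene, and 2 at Lamb1, 198 and 28667 bp into the gene.

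In the promoter window of Lama1, H3K27ac covered 0% in both Control libraries, 8.0% and 0% in KO1, then 10.6% and 20.2% in KO2. The difference of 15.4 ± 3.73 points between KO2 and Control was called (limma adjusted p = 0.00504). Lama1 passed the 5% filter only through the KO2 libraries, where it had to be higher, and its difference lay below the median of 17.9 points over all tested promoters. After quantile normalization it was 1.35 points (adjusted p = 0.798). In the Lamb1 window, H3K27ac covered 8.9% and 5.8% in KO2 and 0% elsewhere, below the filter.

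Among the remaining genes, Apoe carried H3K27ac in every library and Dab2 and Fst carried little. Apoe encodes a lipid-carrying apolipoprotein of visceral endoderm and other tissues. Its window held 3593 and 3626 bp in Control, 5862 and 3860 bp in KO1 and 12830 and 12428 bp in KO2. The KO2 libraries lay well above the rest, while KO1 began just above Control. Apoe was 1.68 ± 0.16 higher in KO2 (limma adjusted p = 1.29e-05; 3.50 times the Control mean), a difference larger than that of 81.0% of tested genes, and 0.54 higher after quantile normalization (adjusted p = 0.00938). In KO1 the difference was 0.36 (adjusted p = 0.150), which was called as 0.63 only without KO1 replicate 2 (adjusted p = 0.0222). KO2 exceeded KO1 by 1.32 (limma adjusted p = 0.00011). Genes on chromosome 7 had a median difference of 1.35 between KO2 and Control, and Apoe exceeded 70.8% of them.

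The Apoe window is shared with Apoc1, Apoc2, Apoc4, Tomm40 and Nectin2, so only part of this length belongs to the gene. The Apoe gene body held 663 and 803 bp in Control, 1417 and 773 bp in KO1 and 3461 and 3544 bp in KO2. These KO2 libraries again lay above all others, and KO1 overlapped Control. In the promoter window, coverage was 16.6% and 20.1% in Control, 26.1% and 13.3% in KO1, then 63.1% and 65.0% in KO2, a gain of 45.7 ± 4.88 points in KO2 (limma adjusted p = 0.000187). Of the 20 merged H3K27ac regions at Apoe, 5 were gained in KO2, near the 24.2% gained among all 77150 merged regions. Of these, 2 were gained in KO1 as well, chr7:19692166-19693112 in Apoc1 and chr7:19696073-19697291 across the 3′ end of Apoe. The second had 371 and 241 bp in KO1 and 1109 and 1091 bp in KO2.

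**Figure D3:**
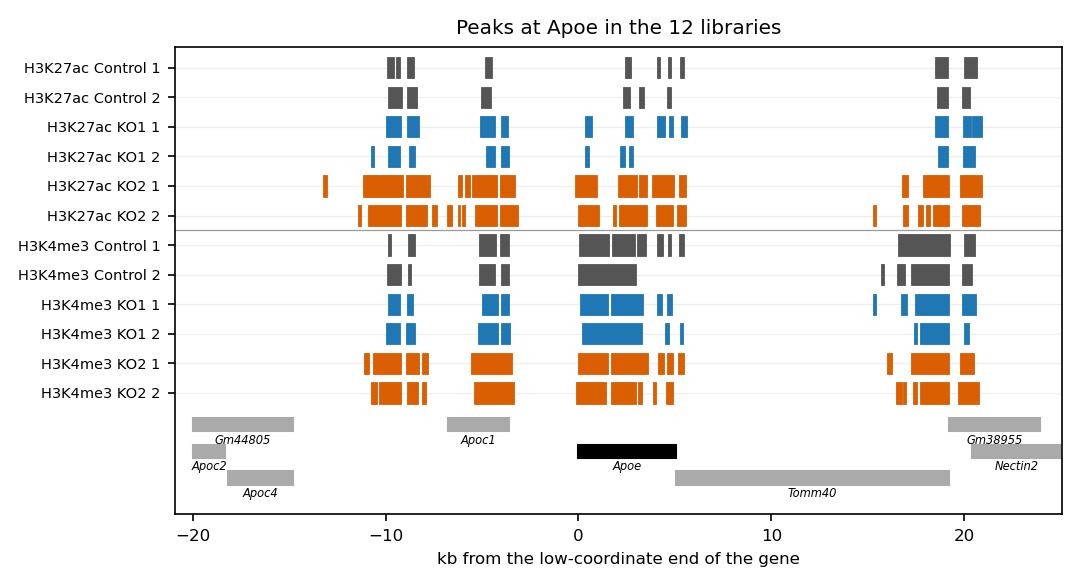
Peaks of the 12 libraries at Apoe, with 1 row per library and kilobases from the low-coordinate end of the gene on the horizontal axis; Apoe (black) runs from right to left, and neighbouring genes are grey. H3K27ac in KO2 covers Apoe and the stretch around Apoc1 more fully than in Control or KO1, whose covered lengths overlap in the gene body.

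Dab2 encodes an endocytic adaptor needed for visceral endoderm to take up material. It had 1 H3K27ac peak of 150 bp in KO1 replicate 2 and 1 of 150 bp in KO2 replicate 1, both at the internal start, and none in the other 4 libraries. Fst encodes follistatin, a secreted protein that binds activin. Its window held 0 and 326 bp in Control, 150 and 150 bp in KO1 and 620 and 437 bp in KO2. KO2 lay above both other genotypes, and the Control length lay outside the gene body. The Fst promoter window was covered by 0% in both Control libraries, 3.7% and 0% in KO1, then 15.5% and 10.9% in KO2, a difference of 13.2 ± 2.48 points in KO2 (limma adjusted p = 0.00156). Fst, too, passed the filter only through KO2, and the difference turned to −0.70 points after quantile normalization (adjusted p = 0.833).

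Over promoters, 4 of the 10 genes were tested for H3K27ac. None was called in KO1, against 0.289% of the 9329 tested promoters higher and 0.0107% lower. Sparc and Apoe, which passed the filter on Control alone, were higher in KO2, against 88.4% of tested promoters, and higher in KO2 than in KO1, against 76.2%, with 0.075% lower in either contrast. Lama1 and Fst were called as well, which brings the counts to 4, but as they passed only through KO2 their calls carry no weight. Without KO2 replicate 2 both counts were 2. In that last contrast Lama1 (11.4 points, limma adjusted p = 0.0234) was not called without KO1 replicate 2 (7.35 points, adjusted p = 0.183). Over all 59 merged H3K27ac regions at the 10 genes, 3 were gained in KO1, against 4.64% of all 77150 regions, and 17 were gained in KO2, against 24.2%. None was lost in either line, against 0.82% and 0.503% of all regions; 1 was lost in KO1 without Control replicate 1, Control replicate 2 or KO1 replicate 1, and 1 in KO2 without Control replicate 1. The counts gained in KO1 were 8 without Control replicate 1, 6 without Control replicate 2 and 5 without KO1 replicate 2, and those in KO2 were 27 without KO2 replicate 1 and 28 without KO2 replicate 2. Leaving out a library relaxes the rule, so counts gained or lost can only stay or rise, here and over all regions. The shares of all regions given above are for the full rule.

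**Figure D4:**
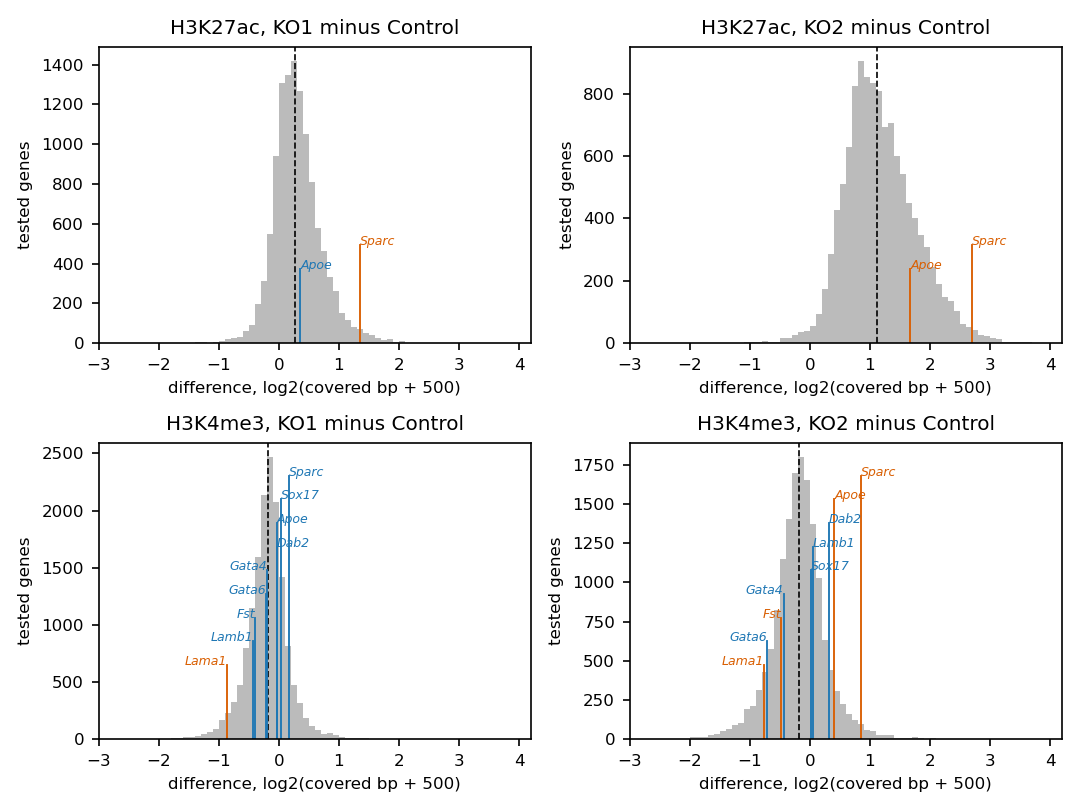
Differences from Control in covered length on the log2(bp + 500) scale for H3K27ac (top) and H3K4me3 (bottom), KO1 on the left and KO2 on the right; grey bars count all tested genes, the dashed line is their median, and vertical lines place the tested primitive endoderm genes (orange where called, blue where not), their heights having no meaning. Sparc lies in the right tail in both H3K27ac panels, and Lama1 in the left tail in both H3K4me3 panels.

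H3K4me3 was present at all 10 genes in Control, and its changes went in both directions. In KO1, 1 gene, Lama1, was lower and none higher, against 19.6% and 2.21% of the 15282 tested genes. In KO2, Lama1 and Fst were lower, against 28% of tested genes, and Sparc and Apoe were higher, against 5.99%. Against KO1, KO2 was higher at 2 of the genes, against 4.11%, and lower at none, against 3.18%. Of the 10 genes, 9 passed the filter on mean length and Sox7 did not. The median over the 9 was −0.19 in KO1 and 0.01 in KO2, beside −0.18 and −0.18 over all tested genes.

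None of the 4 transcription factor genes was called for H3K4me3 in either line. Sox17 had 1700 and 1783 bp in Control, 1928 and 1675 bp in KO1 and 1869 and 1663 bp in KO2. These values overlapped between all genotypes, and all of the length lay in 1 merged region inside the gene that was met in all 6 libraries. Gata6 had 1108 and 959 bp in Control, 787 and 860 bp in KO1, and 1239 bp in KO2 replicate 1 but none in KO2 replicate 2. The KO1 libraries lay below Control, and the 2 KO2 libraries stood on opposite sides of it. Gata6 was not called in either line (limma differences −0.21, adjusted p = 0.760, and −0.72, adjusted p = 0.230), and in KO2 it was called lower only without KO2 replicate 1 (−1.615, adjusted p = 0.000223).

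Gata4 had 3272 and 2882 bp of H3K4me3 in Control, 2584 and 2675 bp in KO1 and 2849 and 1582 bp in KO2. All 4 knockout libraries lay below both Control libraries, and neither difference was called (−0.19, limma adjusted p = 0.516, and −0.44, adjusted p = 0.113); in KO2 it was called without KO2 replicate 1 (−0.78, adjusted p = 0.0025) and with 50 kb flanks (−0.59, adjusted p = 0.00152). Part of this length lies at Neil2, where 1 merged region held 1388 and 1036 bp in Control, 882 and 1264 bp in KO1 and 1174 and 731 bp in KO2. In the Gata4 gene body alone the genotypes overlapped, with 1644 and 1846 bp in Control, 1699 and 1411 bp in KO1 and 1675 and 851 bp in KO2. Its promoter window, placed on the most H3K4me3 within the gene because no start was listed, was covered by 24.6% and 22.1% in Control, 12.7% and 10.5% in KO1, then 15.6% and 13.2% in KO2. The knockout libraries lay below Control there too, without passing (adjusted p = 0.0731 and 0.0791). Sox7 had 552 and 783 bp in Control, 403 and 252 bp in KO1 and 317 and 317 bp in KO2. All 4 knockout values lay below Control, and without the filter neither line was called (adjusted p = 0.104 and 0.0749).

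**Figure D5:**
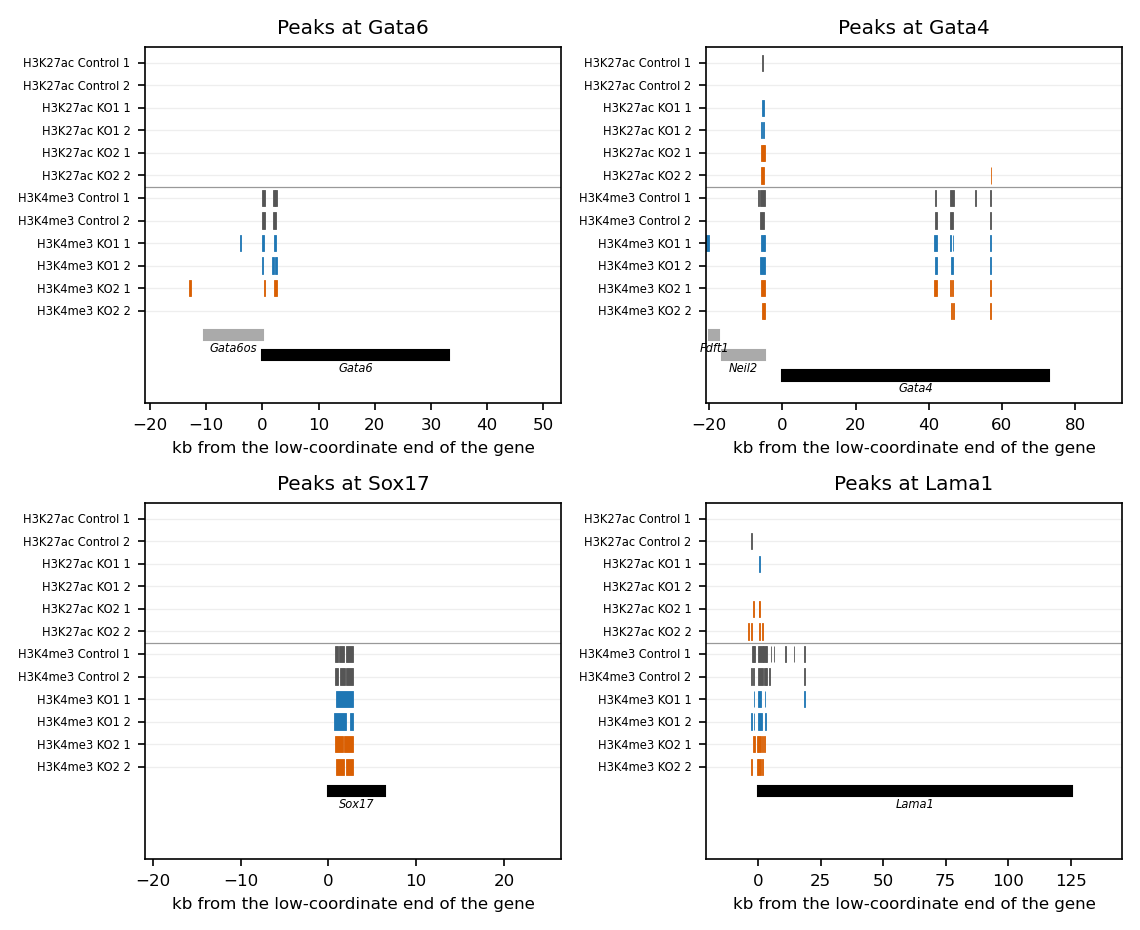
Peaks of the 12 libraries at Gata6, Gata4, Sox17 and Lama1, with kilobases from the low-coordinate end of each gene on the horizontal axes; the named gene is black and other genes are grey. Gata6 and Sox17 show H3K4me3 and no H3K27ac, Gata4 shows H3K27ac almost only at Neil2, and Lama1 shows more H3K4me3 peaks in Control than in the knockout lines.

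Lama1 lost H3K4me3 in both lines. Its covered length was 4794 and 3516 bp in Control, 1803 and 2309 bp in KO1 and 2541 and 1905 bp in KO2. Every knockout library lay below both Control libraries. Lama1 fell by 0.86 in KO1 (SE 0.18, limma adjusted p = 0.00832) and by 0.77 in KO2 (SE 0.18, adjusted p = 0.00838), below the all-gene medians, with no difference called between KO1 and KO2 (0.09, adjusted p = 0.823). Without Control replicate 1 the calls were lost (−0.66, adjusted p = 0.0714, in KO1 and −0.57, adjusted p = 0.0732, in KO2), as was the KO1 call without KO1 replicate 1 (−0.715, adjusted p = 0.0547) and the KO2 call with peaks of −log10 q of at least 5 (−0.53, adjusted p = 0.0602). After quantile normalization both calls held (−0.65, adjusted p = 0.0117, and −0.60, adjusted p = 0.00969). Among genes on chromosome 17, 1.93% fell further in KO1 and 12.2% in KO2.

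Most of the lost length at Lama1 lay in the gene body, which held 4024 and 2883 bp in Control, 1592 and 1986 bp in KO1 and 1706 and 1521 bp in KO2. The first merged region in the gene, chr17:67697134-67699007, was met in all 6 libraries with 1805 and 1717 bp in Control, 1292 and 1500 bp in KO1 and 1539 and 1521 bp in KO2. The next, chr17:67699139-67700799, had 1333 and 834 bp in Control, 150 and 486 bp in KO1 and 167 and 0 bp in KO2. Both regions were shorter in all 4 knockout libraries. A region upstream of the gene, chr17:67695025-67695828, held 553 and 418 bp in Control, 211 and 150 bp in KO1 and 564 and 0 bp in KO2. One further region, 18521 bp into the gene, was lost in KO2, with 173 and 170 bp in Control and none in KO2. Promoter coverage of Lama1 was 78.4% and 63.8% in Control, 36.0% and 49.6% in KO1, then 49.4% and 43.5% in KO2, differences of −28.3 and −24.6 points that did not pass (limma adjusted p = 0.0732 and 0.0580).

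Sparc, in contrast, had more H3K4me3 in KO2. Its covered length was 8789 and 6646 bp in Control, 8499 and 8728 bp in KO1 and 15217 and 13223 bp in KO2. KO1 overlapped Control and KO2 lay above both. Sparc rose by 0.85 ± 0.14 in KO2 (limma adjusted p = 0.00158), more than 98.1% of tested genes, and was not called in KO1 (0.16, adjusted p = 0.438). The excess of KO2 over KO1, 0.69 (adjusted p = 0.0189), was not called without KO1 replicate 1 (adjusted p = 0.0893) or without KO1 replicate 2 (adjusted p = 0.0863). The rise lay in the flanks: the gene body alone held 7345 and 5055 bp in Control and 7075 and 7293 bp in KO2, a difference of 0.22 (adjusted p = 0.428). All 4 H3K4me3 regions gained at Sparc in KO2 lay upstream of the start, and 2 of them, chr11:55426730-55426913 and chr11:55430182-55430585, lay inside H3K27ac regions gained there.

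Apoe also had more H3K4me3 in KO2, by a smaller difference. Its window held 9089 and 8174 bp of H3K4me3 in Control, 8795 and 8108 bp in KO1 and 12172 and 11060 bp in KO2. KO2 lay above both other genotypes, which overlapped. The rise of 0.41 ± 0.11 in KO2 (limma adjusted p = 0.0209) was lost without Control replicate 1 (0.48, adjusted p = 0.0719) and without Control replicate 2 (0.34, adjusted p = 0.184), was 0.17 in the gene body alone (adjusted p = 0.435), and was −0.08 with 50 kb flanks (adjusted p = 0.630). KO2 exceeded KO1 by 0.44 (adjusted p = 0.0481), which was called only with all libraries or without KO2 replicate 2; the adjusted p without each other library ran from 0.0522 to 0.290. In KO1 the difference was −0.03 (adjusted p = 0.889), and 0.29 after quantile normalization (adjusted p = 0.0371).

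Fst had 2624 and 2938 bp of H3K4me3 in Control, 2294 and 1743 bp in KO1 and 1813 and 1897 bp in KO2. Every knockout library lay below both Control libraries. Fst fell by 0.48 in KO2 (limma adjusted p = 0.0282) and differed by −0.39 in KO1 (adjusted p = 0.08). The KO2 call was lost on leaving out any one of the Control or KO2 libraries (adjusted p = 0.0657 without Control replicate 1, 0.148 without Control replicate 2, 0.0665 without KO2 replicate 1 and 0.0620 without KO2 replicate 2). In the promoter window its H3K4me3 covered 65.6% and 73.4% in Control, 57.3% and 43.6% in KO1, then 45.3% and 47.4% in KO2. The difference of −23.1 points in KO2 (adjusted p = 0.0436) made Fst the only one of 9 tested genes called lower over promoters, against 5.67% of 13344 tested promoters, and it was lost without either Control library or either KO2 library (adjusted p from 0.120 to 0.180) and without KO1 replicate 1 (adjusted p = 0.0540). None of the 9 was higher in KO2, against 1.38%, and none was called in KO1, against 1.56% lower and 0.187% higher, or between KO2 and KO1, against 0.525% higher and 0.225% lower.

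Lamb1 and Dab2 were not called in any contrast of H3K4me3 length. Lamb1 had 1191 and 1350 bp in Control, 728 and 901 bp in KO1 and 1307 and 1361 bp in KO2. Only KO1 lay below Control (−0.43, limma adjusted p = 0.0685), as in the sequence window before its start, and the median of genes on chromosome 12 was −0.28 in KO1. Dab2 had 633 and 590 bp in Control, 583 and 592 bp in KO1 and 889 and 870 bp in KO2. KO2 lay above both other genotypes (0.31, adjusted p = 0.168), and all of its H3K4me3 fell in 1 merged region at the internal start, leaving the window of its upstream start at 0% in all 12 libraries.

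Over all 70 merged H3K4me3 regions at the 10 genes, 1 was gained in KO1, against 2.21% of all 105260 regions, and 6 in KO2, against 4.15%. The gained regions in KO2 were 4 at Sparc, 1 at Lama1 and 1 at Apoe. None was lost in KO1, against 7.05%, and 1 was lost in KO2, against 8.4%. The count gained in KO1 was 2 to 3 on leaving out any one Control or KO1 library and the count lost 1 to 7; in KO2, 10 were gained without KO2 replicate 1 and 15 without KO2 replicate 2, and 4 were lost without Control replicate 1, 6 without KO2 replicate 1 and 8 without Control replicate 2. As for H3K27ac, the relaxed rule can only keep or raise these counts, and the shares above are for the full rule.

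The marks were then read together at the promoters. Of 13336 genes with H3K4me3 in the promoter window in both Control libraries, 37.6% had no H3K27ac there in Control, 28.4% in KO1 and 14.9% in KO2. Among the 9 primitive endoderm genes with such H3K4me3 the counts were 7 in Control, 5 in KO1 and 4 in KO2. The 7 in Control were all but Sparc and Apoe. Lama1 and Fst had a peak in KO2 and, of the KO1 libraries, in replicate 1 alone (8.0% and 3.7% of the window). Lamb1 had one in KO2. Gata4, Gata6, Sox17 and Sox7 had no H3K27ac in the window in any of the 6 H3K27ac libraries. The same held for 14.4% of the 13336 genes, for which H3K4me3 was required in Control alone. In KO2 replicate 2, the Gata6 window had no H3K4me3 either. The windows of these transcription factor genes were placed on the most H3K4me3 inside the gene, which favours that mark. At Sparc, 25.4% of the H3K4me3 length pooled over the 2 Control libraries also carried H3K27ac, 62.3% in KO1 and 93.2% in KO2. At Apoe the same share was 41.3%, 55.1% and 85.1%. Over the whole genome, H3K27ac peaks covered 14.36 and 14.62 Mb in Control, 19.59 and 17.47 Mb in KO1 and 37.02 and 35.46 Mb in KO2. The share was not computed for genes outside the 10, so its rise cannot be called particular to Sparc and Apoe.

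Other genes of the lineage were counted in 3 lists. Several of their genes passed the filter only through the knockout libraries, where they had to be higher, so the counts below are of genes averaging at least 500 bp in Control, a restriction chosen after seeing the data. Among transcription factors and early signalling genes (18 in the list, 11 tested, 5 of them with that much in Control), 4 of 5 had more H3K27ac in KO2 (median 1.01). Among visceral endoderm genes (17, 5 tested) it was 2 of 2 (median 1.11), and among basement membrane and parietal endoderm genes (22, 14 tested) 9 of 9 (median 1.39). The same held for 90.9% of the 8844 such genes over the whole genome, with a median of 1.01, for all 10 embryonic stem cell markers (median 0.88), both fibroblast markers (median 0.79) and both trophoblast markers (median 0.95). In KO1 the counts of higher genes were 1 of 5, 0 of 2 and 2 of 9 in the 3 lineage lists, 2 of 10 among stem cell markers, 1 of 2 among fibroblast markers and 0 of 2 among trophoblast markers, against 18.1% of all such genes. The fibroblast summed lengths given above also rose with genotype, and their part in the results was not tested.

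The largest H3K27ac differences in KO2 were those of Otx2, Grb2 and Hhex among transcription factors and signalling genes. Otx2, a homeobox factor of epiblast and anterior visceral endoderm, had 0 and 172 bp in Control, 2185 and 1971 bp in KO1 and 2150 and 2427 bp in KO2. Otx2 differed from Control in both lines (2.15, limma adjusted p = 0.000643, and 2.26, adjusted p = 7.93e-06), and no difference was called between KO2 and KO1 (0.11, adjusted p = 0.601). Otx2 and Hhex averaged under 500 bp in Control and passed the filter only through the knockout libraries, so their calls against Control carry no weight. Grb2, the adaptor that links FGF receptors to Ras, was 1.84 higher in KO2 (adjusted p = 2.38e-06), and Hhex, a homeobox factor of anterior visceral endoderm, 1.80 higher (adjusted p = 4.62e-05). In the visceral list the largest differences were Soat2 (1.65, adjusted p = 0.000704), Apoc2 (1.504, adjusted p = 3.17e-05), whose window overlaps that of Apoe, and Cubn, an endocytic receptor (1.12, adjusted p = 0.0337); Soat2 and Cubn, too, passed only through the knockout libraries.

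In the basement membrane list, Serpinh1, the collagen chaperone, had no H3K27ac in Control, 273 and 0 bp in KO1 and 2424 and 2377 bp in KO2, and passed only through KO2. Lamc1, the gamma chain that completes the laminin of Lama1 and Lamb1, had 2911 and 2556 bp in Control, 3558 and 3101 bp in KO1 and 19908 and 15206 bp in KO2 (2.47 higher, limma adjusted p = 2.16e-06). Fstl1, a secreted glycoprotein, was 2.30 higher (adjusted p = 2.95e-05). H3K4me3 at Lamc1 went from 59798 and 52160 bp in Control to 30403 and 27000 bp in KO1 and 34761 and 24557 bp in KO2 (fell by 0.92 in KO2, adjusted p = 0.00216).

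H3K4me3 in these lists moved in both directions. In KO2, 1 of 15 tested transcription factor and signalling genes was higher and 4 lower, 0 and 1 of 9 visceral genes, and 3 and 5 of 18 basement membrane genes, beside 5.99% and 28% of all tested genes. Msx2, a homeobox factor, fell by 0.81 (limma adjusted p = 0.0012) and Dkk1, a secreted Wnt inhibitor, was higher by 0.79 (adjusted p = 0.015) but passed the filter only through the knockout libraries. Srgn, a proteoglycan, fell by 1.26 (adjusted p = 0.000503), and Apom, an apolipoprotein, fell by 0.41 (adjusted p = 0.026). Col4a1, Col4a2 and Nid1, which encode further basement membrane proteins, were the 3 that rose (0.62, 0.60 and 0.60), while Lamc1, Lama5, Nid2, Hspg2 and Srgn fell. No H3K27ac peak was called in any library at Pdgfra, Foxa2, Gata5, Cited1 or Cer1, or at Afp, Apob, Rbp4, Amn, Ihh, Stra6, Bmp2 or Spink1, or at Thbd, Plat, Pth1r or Krt18, all of them genes of these lists.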

How the data were processed

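The deposited files are peak lists, 1 per immunoprecipitated library. The build, mm10, and the tools are named in the submitters' processing notes: CASAVA, Trimmomatic 0.38, Bowtie 1.2.2 and MACS2 (version, settings and use of input or spike-in not given in the sources used here). For every peak the authors deposited a fold enrichment (a ratio), −log10 p, −log10 q and a score; every peak had a q-value of at most 1%. These were used only to rank or filter peaks within a list.

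The length covered by peaks was computed per gene and library (gene body with 20 kb on each side) and as a percent of a promoter window of 2 kb on each side of a centre. The centre was placed on the most upstream listed RefSeq start (17492 genes) or, where none was listed, on the stretch inside the gene with the most H3K4me3, genotypes weighing equally (3174 genes); 1221 genes had neither. Genes averaging 500 bp or more, or 5% of the window, were fitted with limma 3.58.1 (R 4.3.3; lmFit, eBayes with trend) over the 3 genotypes, with Benjamini-Hochberg adjustment at 0.05 over all tested genes. The log2(bp + 500) scale understates changes of low values. Neighbouring genes share windows and are not independent. Merged regions were called gained or lost when met, by at least 1 bp, in both libraries of one genotype and neither of the other. The scripts were tested on simulated data.

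All 10 genes are named; from 3 further lists, the text names the genes with the largest KO2 differences. Col4a1, Col4a2, Nid1, Lama5, Nid2, Hspg2 and the genes without H3K27ac peaks were named after their values were seen. The members and lists were chosen with earlier results of these data known. Alternatives were another scaling, filter, pseudocount, flank, window, peak threshold, equal list lengths, a replicate block, 2 genotypes per fit, another overlap and leaving out each library; the window with the most H3K4me3 for every gene was chosen after seeing the data.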

Additional observations from a re-analysis of the deposited data

Results flagged for a closer look

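KO1 and KO2 differed from each other, by the limma contrast of KO2 minus KO1 within the fit of all 3 genotypes, in 8 results. For H3K27ac over the gene and flanks, KO2 exceeded KO1 by 1.36 at Sparc and 1.32 at Apoe on the log2 scale, beside a median of 0.83 over all tested genes, of which 82.7% were called higher. For H3K27ac over the promoter window, KO2 exceeded KO1 by 58.7 points at Sparc, 44.3 at Apoe, 11.4 at Lama1 and 11.3 at Fst, beside a median of 14.6 points, so that Lama1 and Fst, which passed the filter only through KO2, differed by less than the typical promoter. For H3K4me3 over the gene and flanks, KO2 exceeded KO1 by 0.69 at Sparc and 0.44 at Apoe, beside a median of −0.01 and 4.11% of tested genes called higher.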

How the results depend on the processing

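Counts of primitive endoderm genes called depended on several choices, and the causes were not tested. The share of all genes or regions called also changes with each choice and is not given below. The counts therefore show dependence on processing and are no result about these genes. In the main fit, 92% of all tested genes had more H3K27ac in KO2 than in Control, and 82.7% more than in KO1. After quantile normalization the counts were 2 and 2 higher for H3K27ac promoters in KO2 against Control and against KO1, 2 higher for H3K4me3 regions in KO1, 1 lower for H3K4me3 regions in KO2, and 1 higher and 0 lower for H3K4me3 promoters in KO2; Fst turned to −0.703 points (H3K27ac promoter, KO2) and Apoe to 0.2882 (H3K4me3, KO1). Without the filter on low values, 6 genes had more H3K27ac in KO2 than in Control and 5 more than in KO1, 1 had more H3K4me3 in KO2 than in KO1, and 0 promoters were lower in H3K4me3. Lamb1, counted among the 6 and the 5, had H3K27ac in KO2 alone and so had to be higher. Gata4 and Lama1, in both counts, and Fst, among the 6, averaged 82, 99 and 163 bp in Control. With so little there they could hardly be lower, so their calls carry little weight. Nearly all of the Gata4 length lay at Neil2. With 50 kb flanks, 2 were higher in H3K27ac in KO1, 5 in KO2 against Control and 5 against KO1, and for H3K4me3 2 were lower in KO1 and 1 higher in KO2, where Apoe turned to −0.08097. Whether the genes so counted for H3K27ac passed the filter on Control alone was not tested. Without flanks, 0 were higher in H3K4me3 in KO2 against either genotype. With peaks of −log10 q of at least 5, H3K4me3 gave 1 higher and 1 lower in KO2 against Control, 1 higher against KO1 and 0 lower promoters. With only 2 genotypes in a fit, KO2 against KO1 gave 4 higher for H3K27ac and 1 for H3K4me3, and with a pseudocount of 100 bp 1 for H3K4me3. With lists of equal length, 2 H3K27ac promoters were higher in KO2 than in KO1 and 0 H3K4me3 promoters were lower in KO2, and the latter was also 0 with a window of 1 kb on each side and with the window of most H3K4me3 for every gene, an alternative chosen after seeing the data. Over genes, deviations of libraries with the same replicate number hardly correlated between genotypes (from −0.00462 to 0.0343). Such a correlation does not see a shift common to all genes. With the number as a replicate block the lower H3K4me3 promoters in KO2 were 0 (Fst, limma adjusted p = 0.0612), while no other call changed. Where peaks had to cover 50% of a merged region, 33 H3K27ac regions were gained in KO2, and for H3K4me3 2 were gained and 4 lost in KO1 and 10 gained and 5 lost in KO2. At −log10 q of at least 5, 5 H3K27ac regions were gained in KO1, and for H3K4me3 2 were gained and 1 lost in KO1 and 2 lost in KO2. With equal lists, 4 H3K27ac regions were gained and 2 H3K4me3 regions lost in KO2. Leaving out each library in turn gave ranges for H3K27ac of 1 to 2 genes higher in KO1, 2 to 4 in KO2 against Control and 2 to 4 against KO1, 2 to 4 promoters higher in KO2 against Control and 2 to 4 against KO1, 4 to 8 regions gained and 0 to 1 lost in KO1, and 20 to 28 gained and 0 to 1 lost in KO2. For H3K4me3 the ranges were 0 to 1 gene lower in KO1, 1 to 2 higher and 0 to 3 lower in KO2 against Control, 0 to 2 higher and 0 to 2 lower in KO2 against KO1, 0 to 1 promoter lower in KO2, 2 to 3 regions gained and 1 to 7 lost in KO1, and 7 to 15 gained and 1 to 8 lost in KO2. Where 1 library of a genotype was left, it was assumed to vary like the others. With a library left out, H3K27ac counts took in genes other than Sparc and Apoe only through the knockout libraries, where they had to be higher. Among single genes, 383 values kept their side of the threshold and 3 reversed, 45 lost a call and 11 gained one.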
